A study of Homo sapiens with 10 samples.

Results

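Interferon-stimulated antiviral effector genes are the genes whose products act on a virus or on the infected cell once interferon has been sensed. A list of 41 such genes was followed by gene symbol through the raw counts of 10 RNA-seq libraries, which hold 59386 genes. Each of the 41 was listed in the counts of all 10 libraries, though *GBP2* and *RUFY4* had 0 counts in both controls. After the filter on low counts 16899 genes were tested, and the 41 were among them, but 9 of them (*IFI16*, *XAF1*, *GBP1*, *GBP2*, *GBP4*, *RTP4*, *SLC15A3*, *RUFY4* and *APOBEC3G*) had under 10 counts in both controls and passed only through the knockdown libraries. These 9 had to differ from control to be tested at all. The other 32 had at least 10 counts in a control library, but the filter asks for about that level in 2 libraries. *IFI35*, *EPSTI1* and *APOL1* did not reach it in both controls, so they also needed a knockdown library to pass.

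The libraries came from VCaP, an established human prostate cancer epithelial cell line, 72 h after lipid transfection with RNAiMAX. *SMARCA4*, the ATPase of the SWI/SNF chromatin remodeling complex, was targeted with siRNA A or siRNA B, and *SMARCA1*, an ISWI-family remodeling ATPase, with siRNA A or siRNA C, each bought from OriGene and given at 30 pmol. Each siRNA and the control had 2 libraries. The labels name neither the siRNA nor the dose of the control, and no sequencing batch or date is given. The letter A marks a different siRNA for each target. Every siRNA differs from the control in its target and in its own sequence, and these cannot be told apart when 1 siRNA is set against the control. The labels do not say that replicate libraries came from separate cultures, so the p-values below measure only the spread between these libraries.

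Type I and type III interferons bind their own receptors and both activate JAK kinases, which phosphorylate transcription factors. With IRF9 these form a complex that binds the interferon-stimulated response element (ISRE) of target promoters, whereas interferon gamma acts mainly through a separate palindromic element called GAS. The effector genes transcribed in this way act at different steps: GTPases trap viral capsids or attack pathogen membranes, enzymes degrade, edit or starve viral RNA, and membrane proteins hold virions at the cell surface or alter lysosomes.

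Both targets were depleted in the libraries labelled for them. *SMARCA4* stood at 242 and 268 CPM in the controls, 25.2 and 23.2 with *SMARCA4* siRNA A, 18.6 and 13.3 with siRNA B, 249.7 and 229.6 with *SMARCA1* siRNA A, and 228 and 237 with siRNA C. *SMARCA1* stood at 32.3 and 31.5 CPM in the controls, 67.5 and 83.8 with *SMARCA4* siRNA A, 57.4 and 60.6 with siRNA B, 3.40 and 1.75 with *SMARCA1* siRNA A, and 3.20 and 2.85 with siRNA C. *SMARCA4* thus fell by 3.70 on the log2 scale (SE 0.13, adjusted p = 3.91e-07) with its own siRNAs and *SMARCA1* fell by 3.51 (SE 0.18, adjusted p = 2.14e-06) with its own, while *SMARCA1* was higher by 1.07 (SE 0.18, adjusted p = 0.001) in *SMARCA4* knockdown. CPM here and below are counts per 1e6 counts of the library, scaled by TMM, and each adjusted p comes from the quasi-likelihood test of edgeR, with Benjamini-Hochberg adjustment over all 16899 genes. Libraries held between 23898545 and 34667965 counts. The 41 genes took 0.0585% of the counts in each control library (exact 95% intervals 0.0575% to 0.0595% and 0.0576% to 0.0594%) and between 1.10% and 2.86% in the 8 knockdown libraries. The share was 2.12% and 1.10% with *SMARCA4* siRNA A, 2.82% and 2.53% with siRNA B, 1.77% and 1.61% with *SMARCA1* siRNA A, and 2.86% and 2.83% with siRNA C. Intervals and limits from counts cover counting error only.

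Promoter sequence in the RefSeq annotation of GRCh38.p14, from 250 bases before to 50 bases after a single annotated start of each gene, was given for 32 of the 41 genes. Other starts were not searched. For some genes, *ZC3HAV1*, *IFI27* and *IFI16* among them, the sequence lies inside the span of the gene in the counts. The ISRE core GAAANNGAAA, searched on both strands, was in 19 of these 32 promoters (59.4%), beside 996 of all 27305 promoters of the same length (3.65%). The tighter spacing GAAANGAAA, added after the sequences were seen and able to overlap the core, was in 12 of 32 (37.5%), beside 878 of 27305 (3.22%). Either spacing was in 24 of 32 (75%), beside 1789 of 27305 (6.55%). The GAS core TTCNNNGAA was in 10 of 32 (31.2%), beside 2152 of 27305 (7.88%). A match of letters is a description and not a measured binding site. The windows of 30 bases below are shown to let the element be seen in some genes with the core, 5′ to 3′ on the gene's own strand, with capitals marking every ISRE match of either spacing on either strand. Genes without a match are named after them.
*MX1* (chr21:41420559-41420588, plus strand): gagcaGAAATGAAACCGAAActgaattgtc
*GBP1* (chr1:89065316-89065345, minus strand): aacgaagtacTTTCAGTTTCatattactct
*SAMD9* (chr7:93118096-93118125, minus strand): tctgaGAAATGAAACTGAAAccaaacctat
*DDX60* (chr4:168318786-168318815, minus strand): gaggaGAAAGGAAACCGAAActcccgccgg
*RUFY4* (chr2:218034950-218034979, plus strand): tgctGAAAACGAAAAGGAAActagcagcag
*IFI6* (chr1:27672266-27672295, minus strand): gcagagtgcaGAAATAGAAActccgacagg
*IFI27* (chr14:94110631-94110660, plus strand): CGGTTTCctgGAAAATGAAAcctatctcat
*BST2* (chr19:17405735-17405764, minus strand): ctggGAAACTGAAACTGAAAacctaattaa
*RTP4* (chr3:187368357-187368386, plus strand): accgaacaccGAAACTGAAActgtttgtct
*EPSTI1* (chr13:42992272-42992301, minus strand): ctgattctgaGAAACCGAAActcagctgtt

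Overlapping matches run together in *MX1*, *SAMD9*, *DDX60*, *RUFY4* and *BST2*, and the match of *GBP1* reads on the opposite strand. *EPSTI1* carries a core of the same letters as *DDX60* and *MX1* share, GAAACCGAAA, yet it had the smallest rise but one of the 41 genes in *SMARCA4* knockdown, as described below. Across the 32 genes, the 19 with the core had a median log2 fold change of 7.14 in *SMARCA4* and 7.56 in *SMARCA1* knockdown, and the 13 without it 6.51 and 6.62. The median control level was 1.43 CPM for the former and 5.30 CPM for the latter. The 2 groups were not tested against each other. Of the genes without the core, *RSAD2*, *XAF1*, *IFI35*, *SP110* and *PNPT1* hold the tighter spacing. Neither spacing was in *IFI16*, *CMPK2*, *SAMD9L*, *SP100*, *HELZ2*, *RNF213*, *ZC3HAV1* and *TDRD7*. Among these *SAMD9L* rose by more than the median of the genes with the core in each knockdown.

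The 250 bases before the start are shown for 3 genes that differ in the element and in the rise. *IFI6*, which had the highest level per kb after knockdown, holds 3 cores there. *BST2* holds 2 overlapping cores. *ZC3HAV1*, which had the highest level per kb in the controls and the smallest rise, holds none before the start that was searched.
*IFI6* (chr1:27672193-27672442, minus strand): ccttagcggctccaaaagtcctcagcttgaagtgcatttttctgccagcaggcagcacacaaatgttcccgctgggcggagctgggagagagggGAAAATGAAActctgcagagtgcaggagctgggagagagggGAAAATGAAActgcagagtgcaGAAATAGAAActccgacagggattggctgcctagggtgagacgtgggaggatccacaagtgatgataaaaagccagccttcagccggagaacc
*BST2* (chr19:17405631-17405880, minus strand): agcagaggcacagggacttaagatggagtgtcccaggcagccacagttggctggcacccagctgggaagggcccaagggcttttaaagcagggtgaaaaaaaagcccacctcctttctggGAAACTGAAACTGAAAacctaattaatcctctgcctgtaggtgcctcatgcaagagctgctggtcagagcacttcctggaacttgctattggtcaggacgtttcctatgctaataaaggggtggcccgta
*ZC3HAV1* (chr7:139109721-139109970, minus strand): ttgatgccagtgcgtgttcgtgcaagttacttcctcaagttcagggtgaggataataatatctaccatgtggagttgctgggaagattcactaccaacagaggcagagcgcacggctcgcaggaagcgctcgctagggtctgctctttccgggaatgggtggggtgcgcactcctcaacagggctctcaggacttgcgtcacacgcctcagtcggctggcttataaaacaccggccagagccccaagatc

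All 41 genes were higher in *SMARCA4* knockdown than in control, at a background of 22.8% of all genes tested called higher. The median log2 fold change of the 41 was 6.21, beside 0.0022 over all genes. All 41 were also higher in *SMARCA1* knockdown, at a background of 23.8%, with a median of 6.80 beside -0.0035 over all genes. The 2 comparisons share their control libraries. For the 9 genes with under 10 counts in both controls a rise was needed to be tested, so their calls support nothing. *IFI35*, *EPSTI1* and *APOL1* also needed a knockdown library to pass the filter. The counts and medians include all of these genes, and the list was chosen with earlier results of these data known. In 40 of 41 genes every one of the 8 knockdown libraries lay above both controls, at a background of 19.6% of all genes. The exception was *EPSTI1*. In bulk RNA, a rise in more cells and a rise to more RNA per cell cannot be told apart.

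**Figure D1:**
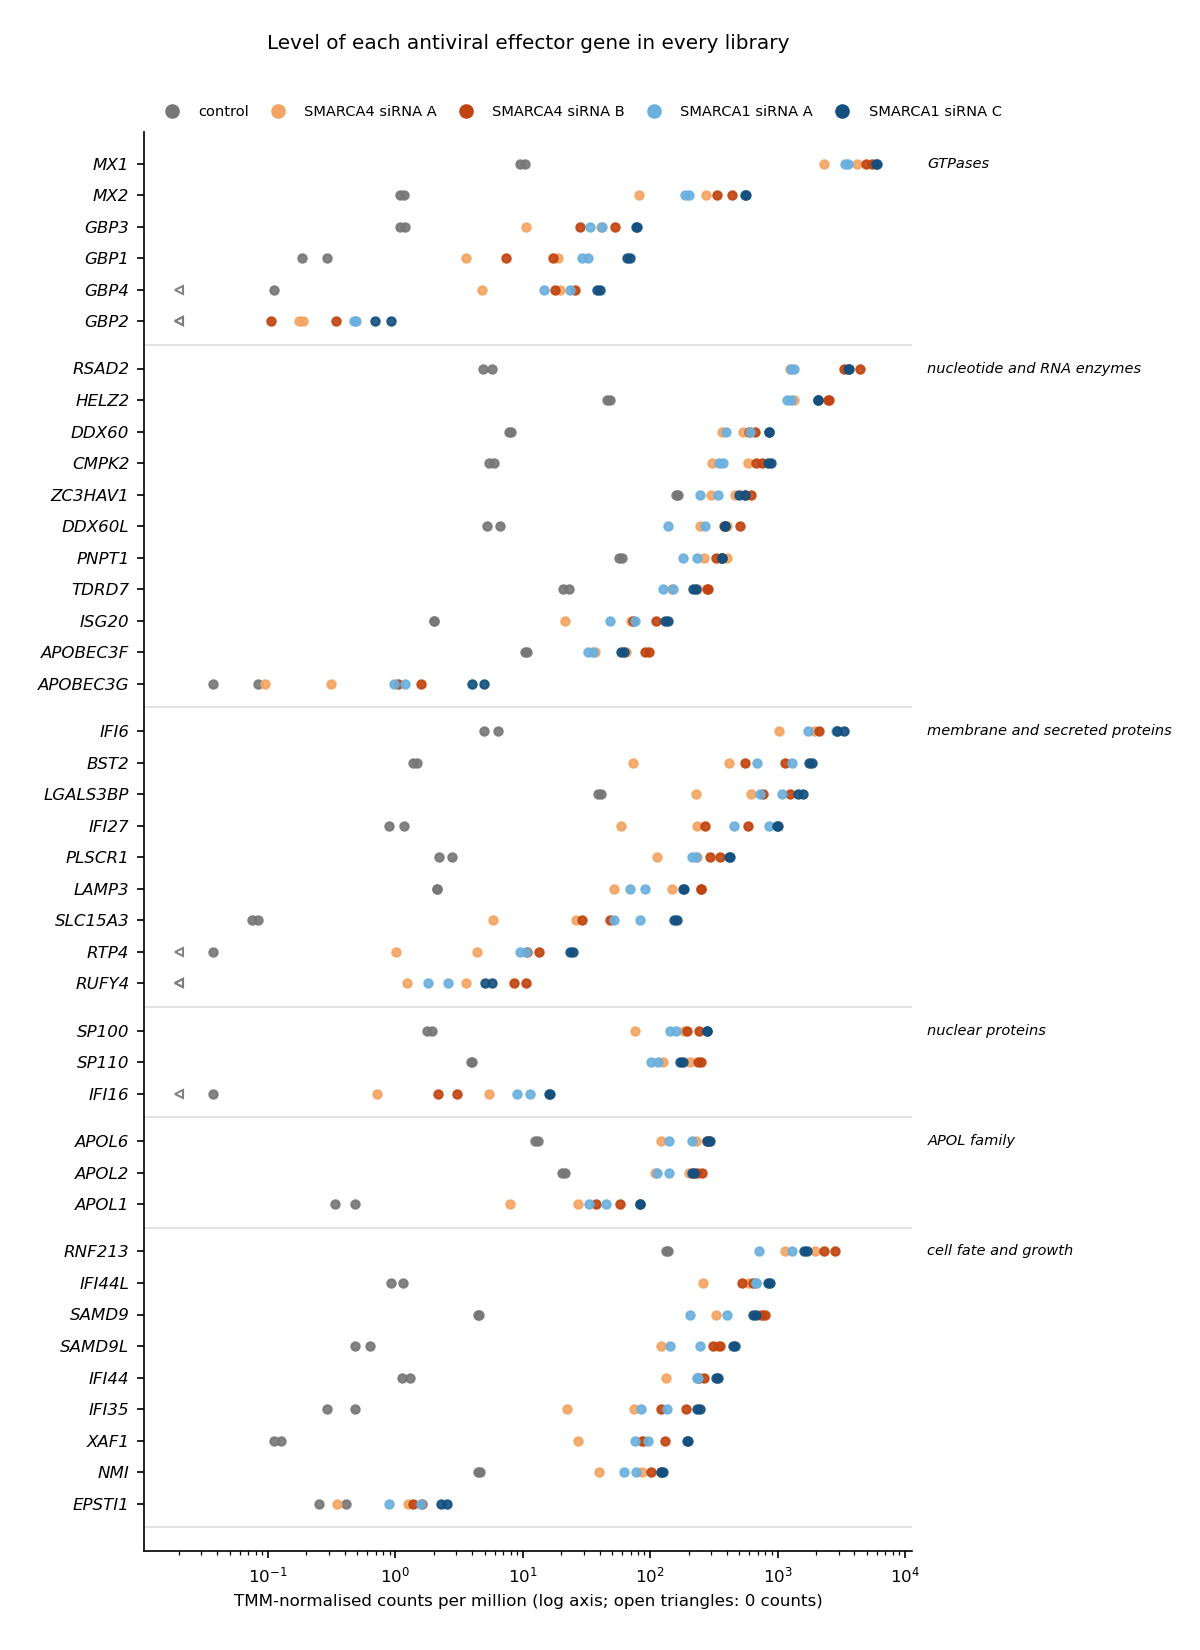
TMM-normalised CPM of each of the 41 genes (rows, grouped by role) in each of the 10 libraries (points, coloured by condition) on a log axis, with open triangles for 0 counts. The 8 knockdown points sit to the right of both control points in 40 of 41 rows, the exception being *EPSTI1*, and replicate 2 of *SMARCA4* siRNA A is the leftmost knockdown point in 31 rows.

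The 6 interferon-induced GTPases all rose with both targets. *MX1* (chr21:41420020-41470071, plus strand), a dynamin-like GTPase that traps viral nucleocapsids, took more counts after knockdown than any other of the 41 genes. It was counted at 9.58 and 10.4 CPM in the controls, 4201 and 2326 with *SMARCA4* siRNA A, 5525 and 4951 with siRNA B, 3549 and 3347 with *SMARCA1* siRNA A, and 6019 and 5952 with siRNA C. Every knockdown library was more than 100 times the controls, and the control and knockdown ranges did not approach each other. A share of 5.55% of its exon length lies opposite other genes, among them *TMPRSS2*, so its counts are uncertain by what those genes may add. The log2 fold change was 8.69 (SE 0.30, adjusted p = 3.91e-07) with *SMARCA4* and 8.82 (SE 0.30, adjusted p = 6.01e-07) with *SMARCA1* siRNAs. *MX2*, its neighbour on chromosome 21 and a restriction factor for HIV-1, had a lower control level per kb (0.0772 CPM per kb, beside 0.557 for *MX1*) and stood at 1.17 and 1.08 CPM in the controls, 275 and 82.2 with *SMARCA4* siRNA A, 437 and 333 with siRNA B, 201 and 187 with *SMARCA1* siRNA A, and 555 and 562 with siRNA C. Its log2 fold changes were 7.86 (SE 0.57) and 8.19 (SE 0.58).

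The guanylate-binding proteins, which attack the vacuoles of intracellular pathogens and are classical targets of interferon gamma, started near or below 1 CPM. *GBP1* (chr1:89051882-89065360, minus strand) stood at 0.293 and 0.186 CPM in the controls, 19 and 3.58 with *SMARCA4* siRNA A, 17.2 and 7.33 with siRNA B, 32.4 and 28.9 with *SMARCA1* siRNA A, and 65.4 and 69.4 with siRNA C. All 4 *SMARCA4* libraries lay below all 4 *SMARCA1* libraries. *GBP2* (chr1:89106132-89150456, minus strand) had no count in either control, and then 0.175 and 0.189 CPM with *SMARCA4* siRNA A, 0.340 and 0.105 with siRNA B, 0.470 and 0.487 with *SMARCA1* siRNA A, and 0.928 and 0.689 with siRNA C. These are between 3 and 29 counts a library, and against 3 counts over the 2 controls together the rise was at least 3.49-fold with *SMARCA4* and at least 11.2-fold with *SMARCA1* siRNAs. Part of its exons (8.60%) also belongs to *GBP7* on the same strand, so some of these few counts are uncertain. *GBP3* rose from 1.09 and 1.19 CPM to between 10.6 and 78 CPM. *GBP4*, with 0 and 3 counts in the controls, reached between 4.78 and 40.5 CPM, a ratio of 286-fold (95% counting interval 97.7 to 1390.0) and 512-fold (95% counting interval 175 to 2480.0).

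The 11 enzymes and cofactors of nucleotides and RNA rose with both targets, over a wide range of sizes. *RSAD2* (chr2:6865557-6898239, plus strand) encodes viperin, which makes a nucleotide that ends viral RNA chains. It stood at 5.77 and 4.83 CPM in the controls, 3623 and 1249 with *SMARCA4* siRNA A, 4391 and 3297 with siRNA B, 1336 and 1282 with *SMARCA1* siRNA A, and 3572 and 3616 with siRNA C. The lowest knockdown libraries were replicate 2 of *SMARCA4* siRNA A and both libraries of *SMARCA1* siRNA A, and none came near the controls. Its log2 fold change was 9.17 (SE 0.52, adjusted p = 2.89e-06) and 8.68 (SE 0.51, adjusted p = 3.79e-06). *CMPK2*, a mitochondrial nucleotide kinase transcribed away from *RSAD2* on the other strand, stood at 5.44 and 5.91 CPM in the controls, 581 and 303 with *SMARCA4* siRNA A, 751 and 679 with siRNA B, 346 and 373 with *SMARCA1* siRNA A, and 838 and 889 with siRNA C. Per kb of gene length *RSAD2* was below *CMPK2* in the controls (0.937 and 1.29 CPM per kb) and above it in all 4 knockdown conditions. A part of their exons overlaps on opposite strands (6.20% of *RSAD2* and 8.0% of *CMPK2*). The library kit keeps strand, but whether the counting used it is not given in the sources used here, so reads in such overlaps cannot be assigned.

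*ISG20*, an exonuclease that degrades viral RNA, rose from 2.01 and 2.01 CPM to between 21.5 and 137 CPM. *DDX60* and *DDX60L*, paired helicases linked to RNA sensing, rose from between 7.84 and 8.07 CPM to between 362 and 860.1 CPM and from between 5.23 and 6.58 CPM to between 137 and 503 CPM. *HELZ2*, a helicase that acts as a nuclear receptor coactivator, rose from 46 and 48.3 CPM to between 1183 and 2523 CPM. These 4 genes rose by 5.02, 6.06, 6.00 and 5.45 on the log2 scale in *SMARCA4* and by 5.50, 6.36, 5.56 and 5.08 in *SMARCA1* knockdown.

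*ZC3HAV1*, *PNPT1* and *TDRD7* had the highest control levels per kb of the enzymes and cofactors. *ZC3HAV1* (chr7:139043515-139132122, minus strand) encodes ZAP, a protein that binds CpG-rich viral RNA. Its control level, 19.2 CPM per kb of gene length, was the highest per kb of the 41 genes. It stood at 165 and 159 CPM in the controls, 459.8 and 297 with *SMARCA4* siRNA A, 617 and 549 with siRNA B, 244 and 337 with *SMARCA1* siRNA A, and 496 and 551 with siRNA C, so that every knockdown library was above both controls by less than 4-fold. The log2 fold change was 1.53 (SE 0.19, adjusted p = 0.000173) and 1.26 (SE 0.19, adjusted p = 0.000549), the smallest of the 41 in each knockdown. *PNPT1*, the polynucleotide phosphorylase of mitochondria (11.1 CPM per kb in the controls, the third highest), stood at 60.3 and 56.6 CPM in the controls, 400.1 and 262 with *SMARCA4* siRNA A, 326 and 359 with siRNA B, 182 and 234 with *SMARCA1* siRNA A, and 366 and 364 with siRNA C. Its rise was 2.53 (SE 0.19, adjusted p = 1.04e-05) and 2.24 (SE 0.18, adjusted p = 2.83e-05). *TDRD7*, a Tudor protein that limits autophagy used by some viruses, rose from 23 and 20.7 CPM to between 126 and 284 CPM.

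The cytidine deaminases *APOBEC3G* and *APOBEC3F*, neighbours on chromosome 22 that mutate retroviral DNA, differed in level (0.0112 and 2.03 CPM per kb in the controls) and in pattern. *APOBEC3G* (chr22:39077067-39087743, plus strand) had 2 and 1 counts in the controls and stood at 0.0836 and 0.0372 CPM in the controls, 0.314 and 0.0943 with *SMARCA4* siRNA A, 1.58 and 1.05 with siRNA B, 1.19 and 0.975 with *SMARCA1* siRNA A, and 4.0 and 4.95 with siRNA C. With *SMARCA4* siRNA A it had 9 and 3 counts and was not called, at a log2 fold change of 1.68 (SE 0.84, adjusted p = 0.15), while the other 3 siRNAs each raised it. The ratio to control was 13-fold (95% counting interval 4.31 to 64.1) over the *SMARCA4* libraries and 50.3-fold (95% counting interval 17.1 to 245) over the *SMARCA1* libraries. *APOBEC3F* was expressed without knockdown and stood at 10.3 and 10.8 CPM in the controls, 63.9 and 36.8 with *SMARCA4* siRNA A, 91.2 and 96.9 with siRNA B, 35.4 and 32.6 with *SMARCA1* siRNA A, and 59.4 and 62.2 with siRNA C. Every *SMARCA4* siRNA B library was above every other library. Of the 50-base words in their exons, 5.76% in *APOBEC3G* and 12% in *APOBEC3F* also occur in other genes. Of the words of *APOBEC3G*, 4.73% occur in *APOBEC3F*, and of those of *APOBEC3F*, 4.96% occur in *APOBEC3G*. A small part of their counts is therefore uncertain.

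The 9 membrane, lysosomal and secreted proteins rose with both targets. *IFI6* (chr1:27666064-27672212, minus strand), a small membrane protein of the endoplasmic reticulum and mitochondria, reached the highest level per kb. It stood at 4.93 and 6.35 CPM in the controls, 1932 and 1021 with *SMARCA4* siRNA A, 2918 and 2122 with siRNA B, 2858 and 1743 with *SMARCA1* siRNA A, and 3306 and 2933 with siRNA C, or 6.03 CPM per kb in the controls and 2515 CPM per kb over the knockdown libraries. Per kb this was above *BST2* (878) and *RSAD2* (494), the next in order. Gene length here counts all annotated exons of a gene together, so the ranking depends on the annotation. A share of 23.1% of its exon length also belongs to *LINC02574* on the same strand, so its level is uncertain by what that gene adds. *BST2* (chr19:17402939-17405630, minus strand) encodes tetherin, which holds budding virions at the cell surface. It stood at 1.38 and 1.49 CPM in the controls, 413 and 73.2 with *SMARCA4* siRNA A, 1132 and 549 with siRNA B, 1287 and 685 with *SMARCA1* siRNA A, and 1842 and 1750.4 with siRNA C. The lowest knockdown library was replicate 2 of *SMARCA4* siRNA A and the highest both libraries of *SMARCA1* siRNA C. The rise of *BST2* was 8.29 (SE 0.88, adjusted p = 7.37e-05) in *SMARCA4* and 9.85 (SE 0.93, adjusted p = 6.11e-05) in *SMARCA1* knockdown.

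*IFI27* (chr14:94104836-94116698, plus strand), a small mitochondrial membrane protein, stood at 1.17 and 0.892 CPM in the controls, 231 and 58.5 with *SMARCA4* siRNA A, 585 and 266 with siRNA B, 858 and 451 with *SMARCA1* siRNA A, and 1012 and 979.8 with siRNA C. Its 2 libraries of *SMARCA4* siRNA A were the lowest pair of the knockdowns, and its log2 fold change was 7.91 (SE 0.79, adjusted p = 4.94e-05) and 9.61 (SE 0.83, adjusted p = 3.98e-05). *SLC15A3* (chr11:60937060-60952653, minus strand), a lysosomal transporter of histidine and peptides, had 2 counts in each control and stood at 0.0836 and 0.0743 CPM in the controls, 25.9 and 5.85 with *SMARCA4* siRNA A, 48.3 and 29.2 with siRNA B, 83.4 and 51.6 with *SMARCA1* siRNA A, and 154 and 161 with siRNA C. All 4 *SMARCA4* libraries were below all 4 *SMARCA1* libraries. The ratio to control was 348-fold (95% counting interval 136 to 1280.0) with *SMARCA4* and 1500.0-fold (95% counting interval 584 to 5490.0) with *SMARCA1* siRNAs, and the fitted log2 fold change with *SMARCA1* siRNAs, 10.28 (SE 0.94, adjusted p = 5.21e-05), was the largest of the 41 genes and is no bound, because the controls were nearly empty.

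*RUFY4* (chr2:218034960-218090581, plus strand), a protein of the autophagic and lysosomal pathway, had no count in either control. It then stood at 3.56 and 1.23 CPM with *SMARCA4* siRNA A, 10.6 and 8.53 with siRNA B, 2.57 and 1.79 with *SMARCA1* siRNA A, and 5.73 and 5.07 with siRNA C. Against 3 counts over the 2 controls together, the rise was at least 102-fold with *SMARCA4* and at least 67.1-fold with *SMARCA1* siRNAs, and *SMARCA4* siRNA B gave the highest levels. *RTP4*, a chaperone of membrane receptors (chr3:187368385-187372076, plus strand), had 0 and 1 counts in the controls and stood at 0 and 0.0372 CPM in the controls, 4.40 and 1.01 with *SMARCA4* siRNA A, 13.4 and 10.7 with siRNA B, 10.5 and 9.46 with *SMARCA1* siRNA A, and 24.8 and 23.2 with siRNA C. The 2 libraries of *SMARCA4* siRNA A were its lowest. The ratio to control was 376-fold (95% counting interval 67.3 to 14900.0) and 902-fold (95% counting interval 162 to 35700.0).

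*LGALS3BP* (chr17:78971238-78979947, minus strand), a secreted glycoprotein that binds galectin 3, had the second highest control level per kb (11.6 CPM per kb). It stood at 38.9 and 40.7 CPM in the controls, 618 and 227 with *SMARCA4* siRNA A, 1238 and 769 with siRNA B, 1088 and 727 with *SMARCA1* siRNA A, and 1433 and 1588 with siRNA C. Its rise was 4.03 (SE 0.42, adjusted p = 6.48e-05) and 4.88 (SE 0.44, adjusted p = 4.66e-05). *PLSCR1*, a phospholipid scramblase that blocks viral entry, rose from 2.22 and 2.79 CPM to between 113 and 423 CPM, and *LAMP3*, a lysosomal membrane protein, from 2.13 and 2.12 CPM to between 52.1 and 250.4 CPM. Both were highest in libraries of a single siRNA, *PLSCR1* with *SMARCA1* siRNA C and *LAMP3* with *SMARCA4* siRNA B.

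Of the 3 nuclear proteins, *IFI16* (chr1:158999968-159055155, plus strand), a sensor of foreign DNA, had the lowest control level per kb of the genes with any control count. Its controls held 0 and 1 counts, and it stood at 0 and 0.0372 CPM in the controls, 5.41 and 0.723 with *SMARCA4* siRNA A, 3.06 and 2.14 with siRNA B, 11.4 and 9.06 with *SMARCA1* siRNA A, and 16.4 and 16.1 with siRNA C. The 4 *SMARCA1* libraries were all above the 4 *SMARCA4* libraries. The ratio to control was 142-fold (95% counting interval 25.2 to 5610.0) with *SMARCA4* and 691-fold (95% counting interval 124 to 27300.0) with *SMARCA1* siRNAs. *SP100* and *SP110*, components of PML nuclear bodies, rose from 1.76 and 1.93 CPM to between 75.4 and 279.6 CPM and from 3.93 and 3.98 CPM to between 101 and 248 CPM. A share of 23.4% of the exon length of *SP110* lies opposite other genes.

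The apolipoprotein L genes sit together on chromosome 22, and *APOL1* encodes the serum factor that lyses trypanosomes. *APOL1* rose from 0.335 and 0.483 CPM to between 7.95 and 83.4 CPM, by 6.12 and 7.09 on the log2 scale. *APOL2* and *APOL6* had higher control levels per kb (6.14 and 1.28 CPM per kb, beside 0.118 for *APOL1*). They stood at 20.4 and 21.6 CPM and 13.2 and 12.5 CPM in the controls and rose by 3.21 and 4.11 in *SMARCA4* and by 2.98 and 4.13 in *SMARCA1* knockdown. The gene of the family with the lowest control level had the largest fold change. *APOL1* needed a knockdown library to pass the filter, and the control level is the denominator of the fold change, so this is a description only.

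The 9 genes linked to cell growth, cell death and protein turnover rose with both targets. *XAF1* (chr17:6755447-6775647, plus strand), a pro-apoptotic partner of XIAP, had 3 counts in each control and stood at 0.125 and 0.111 CPM in the controls, 90 and 27.3 with *SMARCA4* siRNA A, 131 and 86.4 with siRNA B, 95.6 and 75.8 with *SMARCA1* siRNA A, and 195 and 199 with siRNA C. The ratio to control was 709-fold (95% counting interval 326 to 1930.0) and 1250.0-fold (95% counting interval 574 to 3400.0). A share of 38.3% of its exon length lies opposite the gene *PRAL*, so its counts are uncertain by what that gene may add. *IFI44L* (chr1:78619902-78646145, plus strand), a paralog of *IFI44*, stood at 0.920 and 1.15 CPM in the controls, 596 and 261 with *SMARCA4* siRNA A, 644 and 526 with siRNA B, 681 and 669.8 with *SMARCA1* siRNA A, and 846 and 872 with siRNA C. Its rise was 8.90 (SE 0.43, adjusted p = 1.13e-06) and 9.51 (SE 0.44, adjusted p = 1.02e-06). *IFI44*, beside it on chromosome 1, rose from 1.13 and 1.30 CPM to between 132 and 341 CPM.

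*SAMD9* and *SAMD9L*, neighbours on chromosome 7 that restrict poxviruses, rose together. *SAMD9* stood at 4.47 and 4.53 CPM in the controls, 724 and 327 with *SMARCA4* siRNA A, 756 and 792 with siRNA B, 204 and 399.9 with *SMARCA1* siRNA A, and 642 and 673 with siRNA C, and *SAMD9L* (chr7:93130056-93148385, minus strand) at 0.627 and 0.483 CPM in the controls, 339.9 and 122 with *SMARCA4* siRNA A, 354 and 311 with siRNA B, 144 and 244 with *SMARCA1* siRNA A, and 442 and 464 with siRNA C. For both, replicate 1 of *SMARCA1* siRNA A and replicate 2 of *SMARCA4* siRNA A were the lowest knockdown libraries. *SAMD9L* rose by 8.96 (SE 0.59, adjusted p = 5.82e-06) and 9.06 (SE 0.59, adjusted p = 6.98e-06). *IFI35* and *NMI*, partners in a cytosolic complex, rose from 0.293 and 0.483 CPM to between 22.1 and 246 CPM and from 4.64 and 4.42 CPM to between 39.6 and 126 CPM. *RNF213*, a giant ubiquitin ligase that coats intracellular bacteria, stood at 138 and 133 CPM in the controls, 1966 and 1146 with *SMARCA4* siRNA A, 2287 and 2795 with siRNA B, 708 and 1302 with *SMARCA1* siRNA A, and 1688 and 1606 with siRNA C.

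*EPSTI1* (chr13:42886388-42992271, minus strand) was the gene where the control and knockdown groups overlapped. Its controls held 6 and 11 counts, and it stood at 0.251 and 0.409 CPM in the controls, 1.26 and 0.346 with *SMARCA4* siRNA A, 1.61 and 1.37 with siRNA B, 1.59 and 0.894 with *SMARCA1* siRNA A, and 2.27 and 2.55 with siRNA C. Replicate 2 of *SMARCA4* siRNA A lay between the controls, and the other 7 knockdown libraries lay above them. Its log2 fold change was 1.69 (SE 0.54, adjusted p = 0.0266) with *SMARCA4* and 2.37 (SE 0.52, adjusted p = 0.00444) with *SMARCA1* siRNAs. With *SMARCA4* siRNA A alone it was 1.23 (SE 0.61, adjusted p = 0.151) and was not called. Without control replicate 1, control replicate 2 or *SMARCA4* siRNA A replicate 1, its call in *SMARCA4* knockdown was lost, with an adjusted p of up to 0.163, and without control replicate 1 its call in *SMARCA1* knockdown was lost at an adjusted p of 0.0528. Without control replicate 2 the calls of *GBP2* and *APOBEC3G* in *SMARCA4* knockdown were also lost, at adjusted p-values of 0.0532 and 0.0512 by edgeR.

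Genes were also grouped by their level in the controls. The 10 genes with at least 10 CPM in the controls had a median log2 fold change of 3.64 in *SMARCA4* and 3.13 in *SMARCA1* knockdown, the 18 genes between 1 and 10 CPM had 6.59 and 6.71, and the 13 genes under 1 CPM had 7.77 and 8.76. *MX1* had the largest rise of the first group, at 8.69 and 8.82, and *EPSTI1* the smallest of the last, at 1.69 and 2.37. The level after knockdown did not order in this way: its median was 378 CPM in the first group, 334 CPM in the second and 23.1 CPM in the third. A control level also stands in the denominator of the fold change. Of the 13 genes under 1 CPM, 9 passed the filter only through the knockdown libraries and so were selected for a rise. *IFI35*, *EPSTI1* and *APOL1*, also in this group, needed at least 1 knockdown library to pass. The medians are a description and not a test. Among the 33 genes with more than 3 counts in a control, 26 were at least 10-fold above control with each of the 4 siRNAs, and 10 were at least 100-fold above (*MX1*, *MX2*, *IFI6*, *IFI27*, *IFI35*, *IFI44*, *IFI44L*, *BST2*, *RSAD2* and *SAMD9L*). The 7 that stayed under 10-fold with some siRNA were *EPSTI1*, *APOL2*, *RNF213*, *ZC3HAV1*, *APOBEC3F*, *TDRD7* and *PNPT1*, of which all but *EPSTI1* began at 10 CPM or more.

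**Figure D2:**
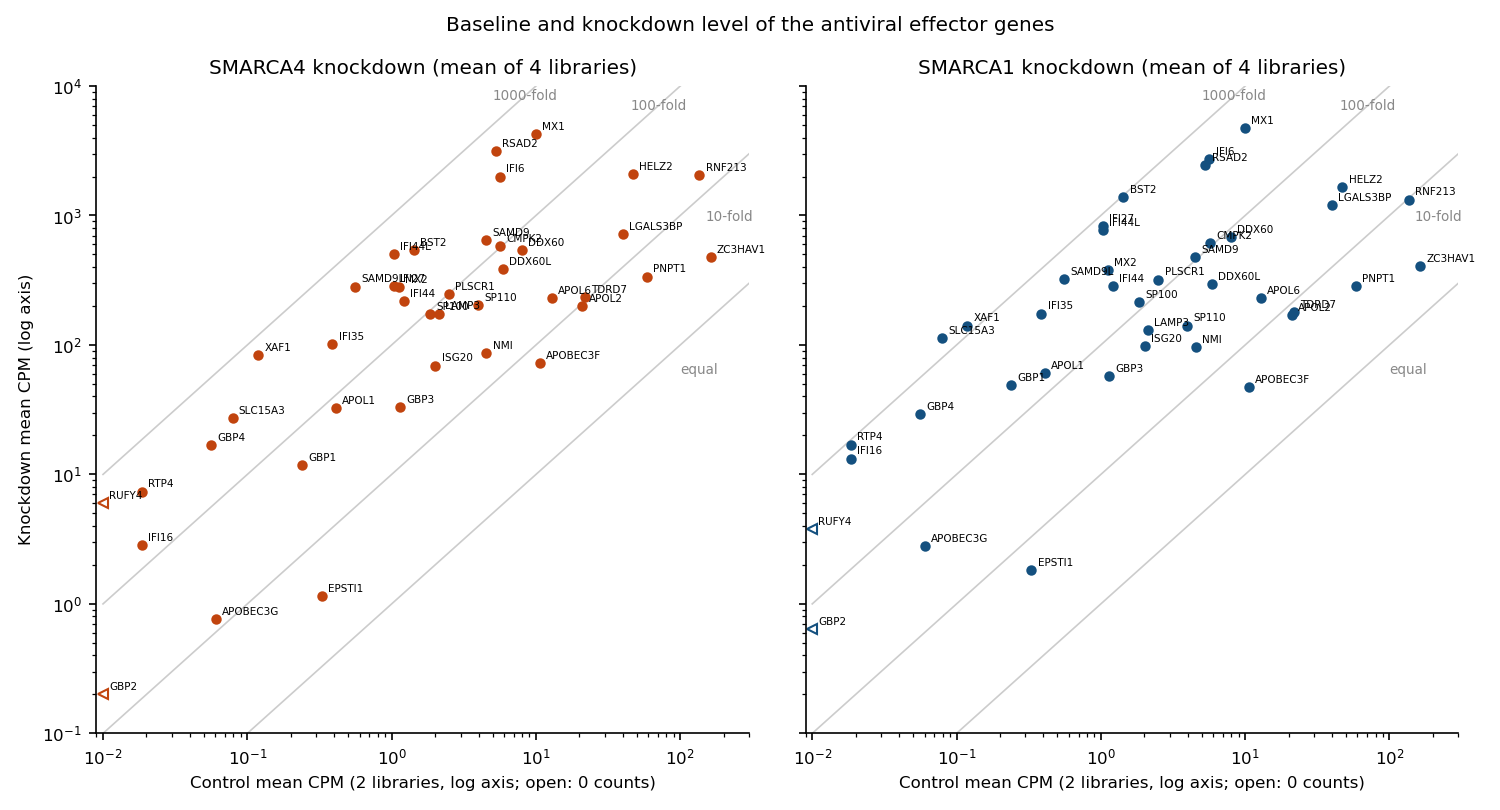
Mean CPM in the 2 controls (x, log axis) against mean CPM in the 4 libraries of *SMARCA4* knockdown (left) or *SMARCA1* knockdown (right, y, log axis), 1 point for each of the 41 genes, with diagonal lines of equal fold change. Genes under 1 CPM in the controls span from under 1 CPM to over 100 CPM after knockdown, and *ZC3HAV1* lies nearest to the line of no change in both panels. Open triangles mark the genes with no count in either control.

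Each siRNA alone raised most or all of the genes. *SMARCA4* siRNA A raised 39 of 41 (background 17.4% of all genes called higher), with *EPSTI1* and *APOBEC3G* not called, *SMARCA4* siRNA B raised 41 (background 23%), *SMARCA1* siRNA A raised 41 (background 18.5%) and *SMARCA1* siRNA C raised 41 (background 23.8%). The median log2 fold change was 5.81 with *SMARCA4* siRNA A, 6.84 with siRNA B, 6.35 with *SMARCA1* siRNA A and 7.25 with siRNA C. The 4 comparisons share the control libraries. Their counts and medians include the 9 genes that passed the filter only through the knockdown libraries.

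Ranked by mean CPM, the control was the lowest condition for all 41 genes. *SMARCA1* siRNA C was the highest condition for 29 genes and *SMARCA4* siRNA B for the other 12. The lowest knockdown condition was *SMARCA4* siRNA A for 25 genes, *SMARCA1* siRNA A for 15 and *SMARCA4* siRNA B for 1. For 19 genes, among them *MX1*, *IFI6*, *XAF1* and *RTP4*, the order ran upward through *SMARCA4* siRNA A, *SMARCA1* siRNA A, *SMARCA4* siRNA B and *SMARCA1* siRNA C. For 12 genes (*RSAD2*, *SAMD9*, *DDX60L*, *SP110*, *APOL2*, *LAMP3*, *RUFY4*, *HELZ2*, *RNF213*, *ZC3HAV1*, *APOBEC3F* and *TDRD7*) it ran through *SMARCA1* siRNA A, *SMARCA4* siRNA A, *SMARCA1* siRNA C and *SMARCA4* siRNA B. For 6 genes (*IFI27*, *IFI44L*, *BST2*, *GBP1*, *GBP2* and *SLC15A3*) both *SMARCA4* siRNAs were below both *SMARCA1* siRNAs. For *CMPK2*, *SAMD9L* and *PNPT1* both *SMARCA4* siRNAs, A below B, lay between *SMARCA1* siRNA A and siRNA C. *IFI16* stood alone, with *SMARCA4* siRNA B below siRNA A.

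Most of these steps were within the spread of the libraries. The lowest knockdown condition was called above the control for 39 of 41 genes. Between neighbouring knockdown conditions, no step passed the test for 37 genes, 1 step passed for *SP110*, *RTP4* and *PNPT1*, and 2 steps passed for *APOBEC3G*. The highest and lowest knockdown conditions differed for 37 genes and not for *CMPK2*, *SAMD9L*, *APOL6* and *PNPT1*. These tests compare conditions picked for being extreme or adjacent in the same data, so they describe the order and do not support it. The highest condition was between 1.64 times (*APOL6*) and 21.9 times (*APOBEC3G*) the lowest knockdown condition, with a median of 2.77 times.

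The 2 libraries of a condition were not equally alike. Replicate 1 of *SMARCA4* siRNA A exceeded replicate 2 in 40 of 41 genes, by a median of 2.28-fold, and by most in *IFI16* (2.74 on the log2 scale). Replicate 2 of *SMARCA4* siRNA A was the lowest of the 8 knockdown libraries in 31 genes. With *SMARCA4* siRNA B replicate 1 was higher in 30 genes, by a median of 1.23-fold over the 41. With *SMARCA1* siRNA A the split was 25 to 16, and with *SMARCA1* siRNA C 20 to 21. The 2 libraries of *SMARCA1* siRNA C differed by a median ratio of 0.999. Over all genes, however, the replicates of *SMARCA1* siRNA A were the least alike, with a chi-square of 60.6 per gene beside 42.9 for *SMARCA4* siRNA A and 6.39 for the controls. The median log2 ratio of replicate 1 over replicate 2 of *SMARCA1* siRNA A was 0.26 in the shortest genes of all those tested and -0.26 in the longest, and among the 41 genes the ratio ran from -0.97 to 0.93. The part of this in the results was not tested. The fold between the replicates of *SMARCA4* siRNA A is therefore of the same size as many of the differences between conditions.

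**Figure D3:**
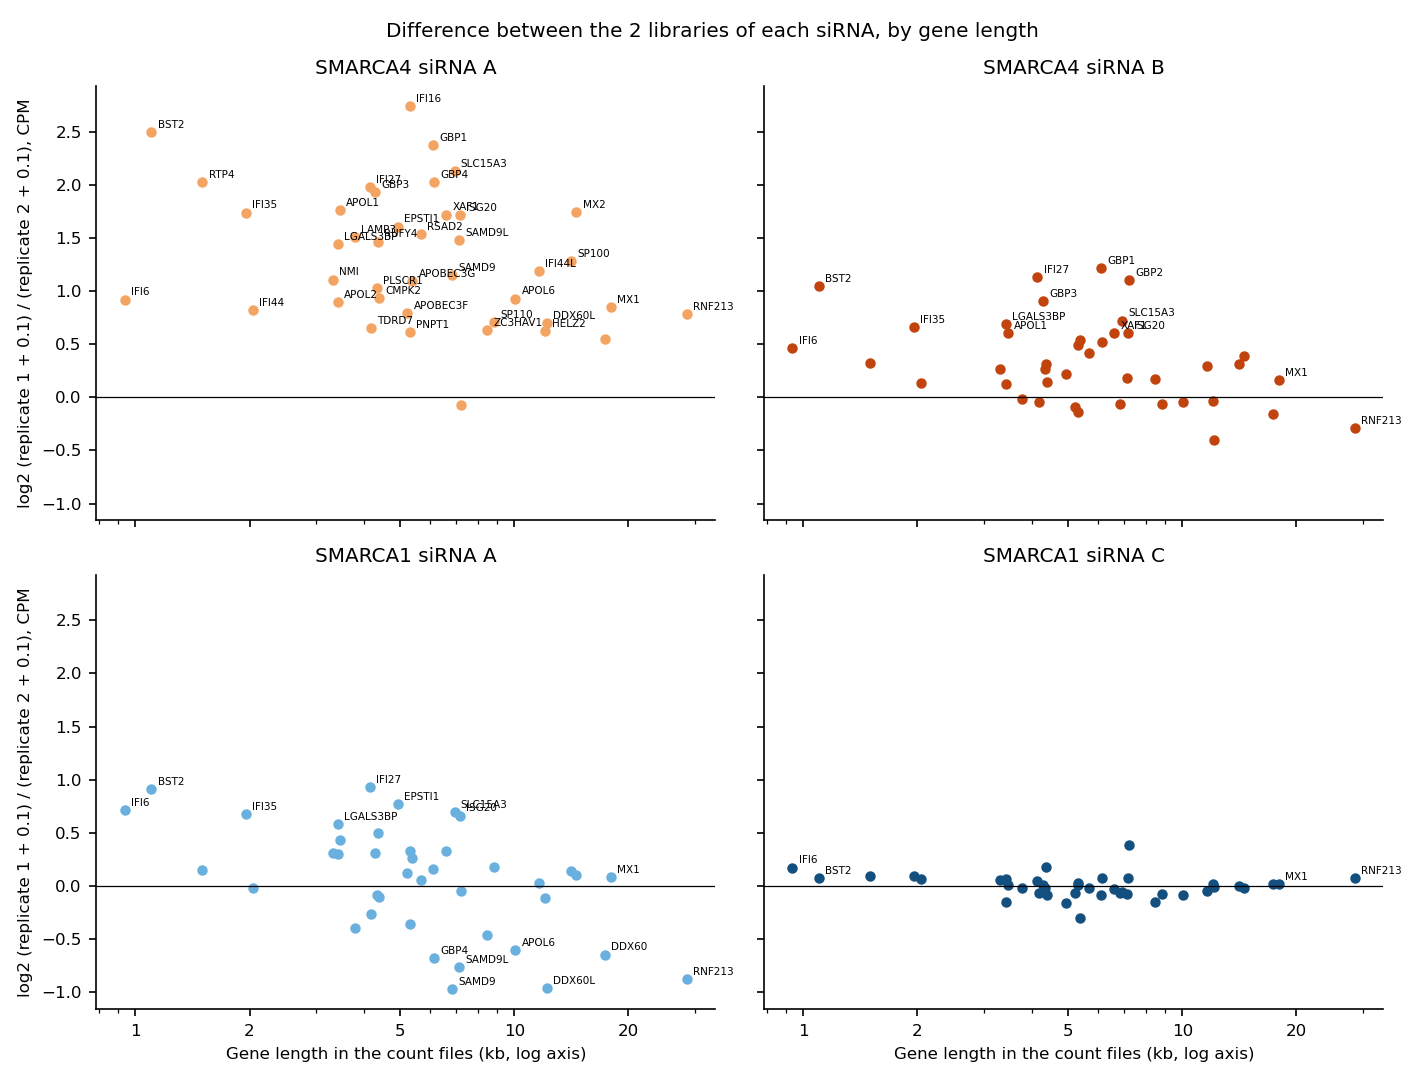
Log2 ratio of the CPM of replicate 1 over replicate 2, each plus 0.1, for each of the 41 genes (points) against gene length in kb (x, log axis), with 1 panel for each siRNA and a line at no difference. The points of *SMARCA4* siRNA A lie above the line for 40 of 41 genes and reach 2.74 (*IFI16*), while those of *SMARCA1* siRNA C lie close to it on both sides.

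Within a target, siRNA A gave the lower mean in 40 of 41 genes for *SMARCA4* and in 41 of 41 for *SMARCA1*. *SMARCA4* siRNA A against siRNA B called 4 genes lower, at a background of 3.17% of all genes, with a median log2 fold change of -0.71 over the 41. These were *APOBEC3G* at -2.70 (SE 0.46, adjusted p = 0.0143), *RTP4* at -2.18 (SE 0.45, adjusted p = 0.0234), *RUFY4* at -2.01 (SE 0.39, adjusted p = 0.0231) and *APOBEC3F* at -0.90 (SE 0.20, adjusted p = 0.032). Their values in every library are given above, and in each of the 4 both libraries of siRNA A lay below both of siRNA B. For genes already called between 2 and 2 libraries this adds no support, and its share over all genes was not taken. The share of all genes called was not taken with a library left out. A change over all genes is thus not separated from a change in the 41. The count of genes called lower rested on single libraries. It was 37 without *SMARCA4* siRNA A replicate 1, 1 without its replicate 2, 0 and 1 without *SMARCA4* siRNA B replicates 1 and 2, 2 without either control, 15 and 14 without *SMARCA1* siRNA A replicates 1 and 2, and 1 without *SMARCA1* siRNA C replicate 2.

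*SMARCA1* siRNA A against siRNA C called none of the 41 genes by edgeR, at a background of 0.0118% of all genes in either direction. Without adjustment, 30 of the 41 had a p below 0.05, beside 17.1% of all genes. DESeq2 called 16 lower, and its share over all genes was not taken. The median log2 fold change was -0.89. The largest ratios of siRNA C to siRNA A were 4.13 for *APOBEC3G*, 2.88 for *MX2* and 2.75 for *RSAD2*, and their adjusted p-values by edgeR were 0.109, 0.142 and 0.142. The count of genes called lower moved with a library left out, where the share of all genes was not taken. The count was 22 and 23 without *SMARCA4* siRNA A replicates 1 and 2, 1 and 12 without *SMARCA1* siRNA A replicates 1 and 2, and 0 without any other library.

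*SMARCA4* against *SMARCA1* knockdown asked which effector genes differ between the targets when both sides are transfected. It called 12 of the 41 genes lower with *SMARCA4* siRNAs, at a background of 19.1%, and 5 higher, at a background of 16.3%, so the share called higher was under the background. The median log2 fold change was -0.33, beside -0.01 over all genes. The 5 largest differences were in *IFI16* at -2.20 (SE 0.41, adjusted p = 0.00289), *APOBEC3G* at -2.09 (SE 0.28, adjusted p = 0.000568), *SLC15A3* at -2.06 (SE 0.36, adjusted p = 0.00227), *GBP1* at -1.95 (SE 0.41, adjusted p = 0.00517) and *IFI27* at -1.70 (SE 0.39, adjusted p = 0.00842). The others called lower were *GBP2* (-1.59), *BST2* (-1.56), *RTP4* (-1.45), *APOL1* (-0.97), *IFI35* (-0.91), *LGALS3BP* (-0.85) and *IFI44L* (-0.61). *GBP2* had 25 counts over the *SMARCA4* libraries and passed the filter only through the *SMARCA1* libraries. It thus had to be higher there to be tested, and its call supports nothing. The 5 called higher were smaller changes, *RNF213* (0.63), *APOBEC3F* (0.60), *SP110* (0.55), *TDRD7* (0.39) and *HELZ2* (0.37).

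By role, 5 of the 9 membrane, lysosomal and secreted proteins and 2 of the 6 GTPases were lower with *SMARCA4* siRNAs and none of either group was higher. Of the 11 enzymes and cofactors of nucleotides and RNA, 3 were higher and 1 lower. Of the 9 genes of cell growth and death 1 was higher and 2 lower, of the 3 nuclear proteins 1 each way, and of the 3 apolipoprotein L genes 1 lower. Over all genes 19.1% were lower and 16.3% higher, several of these groups hold too few genes to set beside those shares, and the roles were not tested against each other. All 4 *SMARCA4* libraries lay below all 4 *SMARCA1* libraries for 5 genes (*IFI44L*, *IFI16*, *GBP1*, *GBP2* and *SLC15A3*), which is a share near the background of 13.8% of all genes. *GBP2*, also among the GTPases called lower, passed the filter only through the *SMARCA1* libraries. No gene of the 41 had the reverse separation, beside 13% of all genes.

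The counts between targets moved with single libraries, and the share of all genes called was not taken with a library left out. The number called lower was 27 without *SMARCA4* siRNA A replicate 1, 7 without *SMARCA4* siRNA B replicate 2 or *SMARCA1* siRNA C replicate 1, and between 8 and 13 without each of the other 7. The number called higher was 12 without *SMARCA4* siRNA A replicate 2, 9 without *SMARCA1* siRNA A replicate 2, 3 without *SMARCA4* siRNA B replicate 1, and 2 without each of the other 7. The sizes moved too. Without replicate 1 and without replicate 2 of *SMARCA4* siRNA A, the log2 fold change was -3.21 and -1.77 in *IFI16*, -2.60 and -1.76 in *APOBEC3G*, -2.76 and -1.69 in *SLC15A3*, -2.76 and -1.56 in *GBP1*, and -2.34 and -1.36 in *IFI27*. *IFI16*, *APOBEC3G*, *SLC15A3* and *GBP1* were called lower in each of the 19 alternative fits, with adjusted p-values of up to 0.0239, 0.00624, 0.0204 and 0.043.

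**Figure D4:**
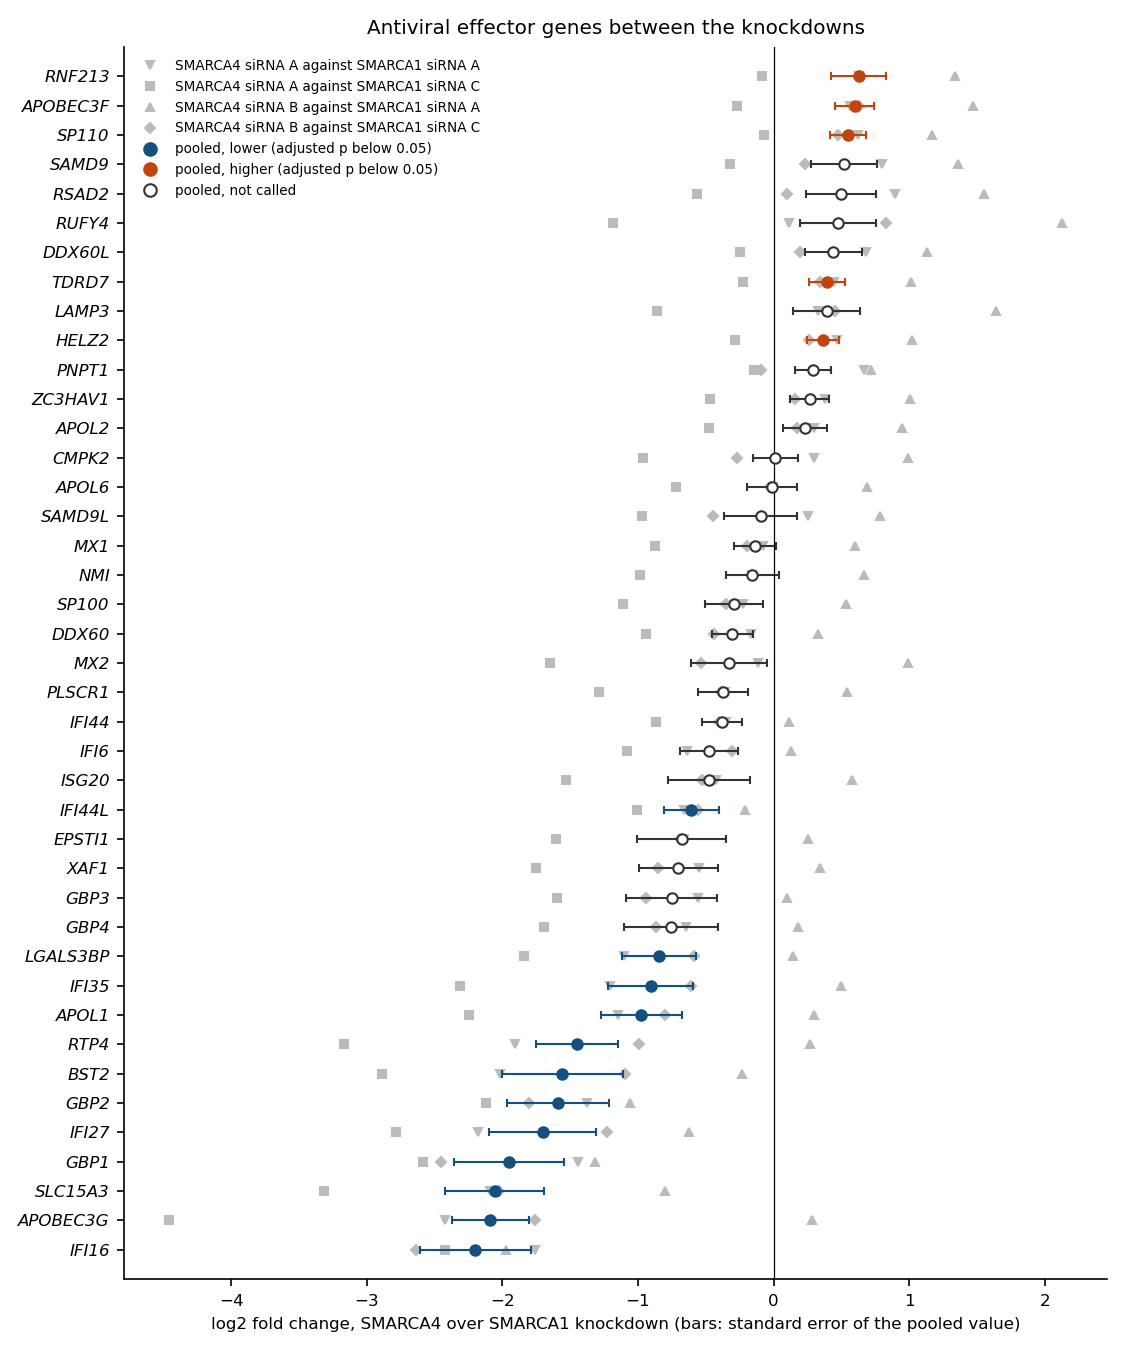
Log2 fold change of *SMARCA4* over *SMARCA1* knockdown for the 41 genes, ordered by value, with the pooled value as a circle with its standard error (filled where called lower or higher) and the 4 comparisons of single siRNAs as grey symbols. The 12 genes called lower reach -2.20 (*IFI16*), and the 5 called higher stay between 0.37 and 0.63.

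Set siRNA against siRNA, the difference between targets took different sizes. *SMARCA4* siRNA A against *SMARCA1* siRNA A called 5 genes lower (background 10.7%) and 2 higher (background 10.8%), which for the genes lower is near the background. *SMARCA4* siRNA A against *SMARCA1* siRNA C called 26 lower (background 12.6%). *SMARCA4* siRNA B against *SMARCA1* siRNA A called 14 higher (background 12.7%) and 1 lower, *IFI16* (background 13.4%). *SMARCA4* siRNA B against *SMARCA1* siRNA C called 5 lower, *IFI16*, *APOBEC3G*, *SLC15A3*, *GBP1* and *GBP2*, near the background of 9.92%. *GBP2* passed the filter only through the *SMARCA1* libraries. The median log2 fold changes were -0.23, -1.08, 0.54 and -0.40. The pairs share libraries with each other. Of the 17 genes called between targets, none was called in all 4 pairs, 3 (*IFI16*, *APOBEC3G* and *SLC15A3*) were called in 3, and 8 in 1 pair or none. For *IFI16* the 4 values were -1.76, -2.42, -1.97 and -2.64, of which the first missed the threshold (adjusted p = 0.0542). For *APOBEC3G* they were -2.42, -4.46, 0.28 and -1.76, so its sign turned between *SMARCA4* siRNA B and *SMARCA1* siRNA A.

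Gene length moved with the comparison of targets. Over all genes, the median log2 fold change of *SMARCA4* over *SMARCA1* knockdown was -0.16 in the shortest genes (up to 2691 bases, 4225 genes) and 0.12 in the longest (from 7355 bases, 4225 genes). Among the 41 genes, those called lower had a median length of 4720.5 bases and those called higher of 8849 bases. With a smooth trend on length removed from each library, an alternative chosen after the data were seen, 12 genes were called lower and 3 higher (*SP110*, *APOBEC3F* and *TDRD7*). *HELZ2*, *RNF213* and *IFI35* were then no longer called.

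Genes upstream of the effectors were followed as fixed lists. *IFNB1*, which encodes interferon beta, had no count in the controls and stood at 3.39 and 1.35 CPM with *SMARCA4* siRNA A, 5.50 and 6.60 with siRNA B, 2.68 and 3.45 with *SMARCA1* siRNA A and 10.1 and 9.44 with siRNA C. Its condition means therefore followed the order that 19 of the 41 genes had. *IFNL1*, an interferon of type III, stood at 0 and 0.0372 CPM in the controls, 18.6 and 5.78 with *SMARCA4* siRNA A, 27.7 and 33.2 with siRNA B, 13.1 and 10.4 with *SMARCA1* siRNA A, and 32.6 and 33.9 with siRNA C. It had *SMARCA1* siRNA A lowest of the knockdown means, the order of *CMPK2*, *SAMD9L* and *PNPT1*. Of 9 interferon genes listed, 6 were tested and 5 of them called higher in each knockdown. All 6 had under 10 counts in both controls and passed the filter only through the knockdown libraries, so they had to differ to be tested and the count supports nothing. *IRF9* rose by 3.55 and 3.17 on the log2 scale, *IRF7* by 4.50 and 4.27, and *ISG15* by 7.66 and 7.85, in *SMARCA4* and *SMARCA1* knockdown.

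Over all genes tested, 22.8% were called higher and 22.3% lower in *SMARCA4* knockdown, and 23.8% higher and 23% lower in *SMARCA1* knockdown. Of 18 receptor and signaling genes, 13 were higher in *SMARCA4* and 15 in *SMARCA1* knockdown and none was lower. Of 10 RNA and DNA sensors and adaptors tested, 7 and 8 were higher, and 1, *MAVS*, was lower in both. The 31 other interferon-stimulated genes on the list were higher in both knockdowns. Under 10 counts in both controls were held by 1 of the 18, 1 of the 10 and 2 of the 31. The summed level of 11 prostate epithelial markers lay between 8840 and 10780 CPM in the 10 libraries. The summed level of 10 leukocyte markers lay between 2.38 and 2.75 CPM in the controls and between 2.49 and 23.7 CPM in the knockdown libraries. Only 2 of these 10 passed the filter, *LYZ*, which rose by 3.26 and 4.63 on the log2 scale, and *CD14*, which fell by 1.36 and 0.67. The pan-leukocyte marker *PTPRC* had no count in 9 of the libraries and 1 count in the other, and *CD3E* and *MS4A1* were at or near 0 in all of them.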

How the data were processed

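Poly(A)-selected RNA of VCaP cells was sequenced by the authors from libraries made with a directional kit. Per the labels and the submitters' processing notes, reads were aligned to hg38 with HISAT2 2.1.0 and counted per gene with featureCounts 1.5.2. The deposited files hold these counts unnormalized, as whole numbers, for 59386 genes in each of 10 libraries. Groups and replicates were taken from the sample labels.

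Genes were filtered with filterByExpr (minimum count 10, minimum total count 15), which kept 16899, scaled by TMM and fitted with edgeR 4.0.16's quasi-likelihood test in R 4.3.3 as 5 groups over all 10 libraries. For each knockdown the fitted means of both its siRNA groups were averaged. P-values were adjusted by Benjamini-Hochberg over all 16899 genes and called below 0.05. A standard error was obtained from the log2 fold change and the F statistic (its size over the root of F). The script was tested on simulated data. Library totals of 23898545 to 34667965 counts put a floor of 3 counts at 0.0865 to 0.126 CPM. Levels per kb used the gene length in the count files, which counts all annotated exons of a gene together. The members and the gene lists were chosen with earlier results of these data known. Some single genes of the lists are not reported here. Values in every library are given for the highest and lowest genes per kb, the largest changes in each comparison, the genes not called with an siRNA and those with an unlike order of conditions. Where both controls held 0 counts, a fold was a lower bound against 3 counts over both together, and a ratio to 1 to 3 control counts has an exact 95% binomial interval. Promoters came from RefSeq, GRCh38.p14. Alternatives were DESeq2 1.42.0, other scalings, filters, call rules and samples, each library left out in turn and, added after the data were seen, a trend on gene length taken out.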

Additional observations from a re-analysis of the deposited data

Results flagged for a closer look

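Among the 4 libraries of each knockdown, 1 value lay apart by Dixon's test at its 95% level. *SAMD9* was at 327 CPM in replicate 2 of *SMARCA4* siRNA A, below the other 3 *SMARCA4* libraries. In all, 84 groups of 4 libraries were examined, and chance alone marks about 1 in 20 such groups.

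The effect of the knockdown differed between the targets for 17 of the 41 genes by edgeR's quasi-likelihood test of the difference. This is near the background of 35.4% of all genes called in either direction. None of the 17 was called in all 4 pairs of single siRNAs, and *GBP2* passed the filter only through the *SMARCA1* libraries. With *SMARCA4* siRNAs relative to *SMARCA1* siRNAs, the log2 fold change was -2.20 in *IFI16*, -2.09 in *APOBEC3G*, -2.06 in *SLC15A3*, -1.95 in *GBP1*, -1.70 in *IFI27*, -1.59 in *GBP2*, -1.56 in *BST2* and -1.45 in *RTP4*. It was -0.97 in *APOL1*, -0.91 in *IFI35*, -0.85 in *LGALS3BP* and -0.61 in *IFI44L*. It was 0.37 in *HELZ2*, 0.39 in *TDRD7*, 0.55 in *SP110*, 0.60 in *APOBEC3F* and 0.63 in *RNF213*.

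Between the siRNAs of *SMARCA4*, 4 genes differed, at a background of 6.2% of all genes called in either direction. This number rested on single libraries, as given above. With siRNA A relative to siRNA B the log2 fold change was -2.70 in *APOBEC3G*, -2.18 in *RTP4*, -2.01 in *RUFY4* and -0.90 in *APOBEC3F*.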

How the results depend on the processing

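No gene called in a comparison changed sign there under the alternatives, and genes not called were not followed. The counts of genes higher than control stayed between 38 and 41 in every alternative and with each library left out. The counts between siRNAs and between targets moved, and the cause was not tested beyond what each alternative changes. The share of all genes called was not taken for any alternative or left-out library, so these counts have no background beside them. For *SMARCA4* against *SMARCA1* knockdown, 12 genes were higher and 23 lower without a filter on low counts, 0 and 4 when the change had to exceed 1.5-fold (glmTreat), and 3 were higher with the length trend removed. For *SMARCA4* siRNA A against siRNA B, 15 were lower by DESeq2, 36 without the filter, 0 beyond 1.5-fold and 8 with the length trend removed. For *SMARCA1* siRNA A against siRNA C, 16 were lower by DESeq2, 38 without the filter and 26 in a fit of that knockdown and the controls alone. Leaving out 1 library at a time, with the lone library of an arm assumed to vary like the other groups, gave 2 to 12 higher and 7 to 27 lower between targets, 0 to 37 lower between the *SMARCA4* siRNAs and 0 to 23 between the *SMARCA1* siRNAs. Without mitochondrial genes in the total, the 41 genes took 0.0596% of control counts and 2.888% with *SMARCA1* siRNA C.

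The labels number the replicates alike across groups but name nothing that they share. The differences between same-numbered replicates correlated over genes at 0.502 between the *SMARCA4* siRNAs and at 0.136 and 0.401 between *SMARCA1* siRNA A and *SMARCA4* siRNAs A and B, but at between -0.217 and 0.068 for every pair with the control or *SMARCA1* siRNA C, so the numbers were not taken to pair the samples. With the replicate number as a block, 13 genes were lower between the *SMARCA4* siRNAs, 16 lower and 5 higher between targets, and the counts against control did not change.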
